A study of Mus musculus with 6 samples.

Results

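The collagen genes encode the chains of the most abundant proteins of the extracellular matrix. They were taken as every gene whose symbol in the platform annotation of the array reads Col, a number, the letter a and a number, with the probe set of highest mean signal standing for the gene. The rule gave 44 collagen genes of 19938 genes measured, from 46 probe sets with 1 gene symbol. It used names and mean signal and no difference between tumours. By textbook class they were 11 fibrillar, 6 basement membrane, 9 FACIT (fibril-associated collagens with interrupted triple helices), 6 beaded filament, 3 short-chain network, 2 multiplexin and 4 transmembrane genes, and 3 genes that were put in none of these (Col7a1, Col26a1 and Col28a1).

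The samples were mouse gliomas grown from cells that a mutant form of EGFR, the receptor for epidermal growth factor, drives, and they were hybridised as total RNA to Affymetrix gene expression arrays with 1 array per tumour. The comparison asks how tumours that came back after the mutant receptor was switched off differ from control tumours, with 3 control gliomas (numbered 1, 2 and 4) against 3 relapsed gliomas (numbered 1, 2 and 3). In both groups the cells had been placed under the skin of the flank of Nu/Nu mice, a strain without a thymus, and tumours were taken at 2 cm3, so the host tissue around them was not brain. Doxycycline was given to some of the mice at 2 g/L in the drinking water, but the labels do not tie it to either group, and they give no strain or age beyond this. The host and the tumour cells are both of mouse, so bulk RNA does not separate their transcripts. More cells of a type and more RNA per cell cannot be told apart in these samples.

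Collagen chains wind in threes into a triple helix. Fibrillar collagens pack side by side into the tension-bearing fibrils of skin, tendon and scar, and fibroblasts are their main source. Type IV collagen forms the sheet-like network of basement membranes under epithelium and around vessels. FACIT collagens sit on the surface of fibrils, type VI collagen makes fine beaded filaments around cells, and type VIII collagen makes a network in vessel walls and beneath endothelium. Normal brain parenchyma holds little fibrillar collagen, which there is found mainly in the meninges and around larger vessels.

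Values are log2 intensities as the authors deposited them, over a range of 1.93 to 14.2. Array medians were 6.58 to 6.62 in the controls and 6.67 to 6.68 in the relapsed gliomas. Differences are relapsed minus control on this log2 scale with their standard error (SE) from limma, and a gene was called where its p, after Benjamini-Hochberg adjustment across the 19938 genes, was under 0.05. Probe sets of different genes differ in brightness for reasons other than RNA level, so no gene's level was set against that of another. Mouse Egfr was at 9.24, 10.00 and 9.70 in control 1, 2 and 4 and at 10.33, 9.41 and 9.92 in relapsed 1, 2 and 3. These values overlap, and whether its probe set reads the mutant receptor is not given in the sources used here. Marker scores of other tissues were higher in single arrays: keratinocyte genes in relapsed 3, adipocyte genes in relapsed 1 and skeletal muscle genes in control 2. Whether such tissue was present was not tested.

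Collagen genes that rose in the relapsed gliomas came from 3 classes. The fibrillar genes Col1a1, Col1a2, Col3a1 and Col5a2, the beaded filament gene Col6a3 and the short-chain gene Col8a1 rose by 2.19-fold to 3.09-fold. These 6 were the collagens called higher by limma, of 44, where 3.69% of all genes were called higher. No collagen was called lower, where 5.47% of all genes were. At an unadjusted p under 0.05, 13 of 44 collagens were higher, where 11.2% of all genes were, and 3 were lower, where 15.4% of all genes were. All 3 relapsed gliomas were above all 3 controls for 13 collagens, where this held for 13.0% of all genes. All 3 were below all controls for 3 collagens, where this held for 17.8% of all genes. The remaining 28 collagens overlapped between groups, with differences from -0.34 to 0.18. The mean was higher in relapsed gliomas for 30 of 44 collagens, or 68.2%, against 44.9% of all genes, and the median difference was 0.09 against -0.02. With each array centred on its median, 7 of these 30 changed sign, and the medians were 0.011 for collagens and -0.093 for all genes. With quantile normalization 7 changed sign too, and the medians were 0.031 and -0.070.

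**Figure D1:**
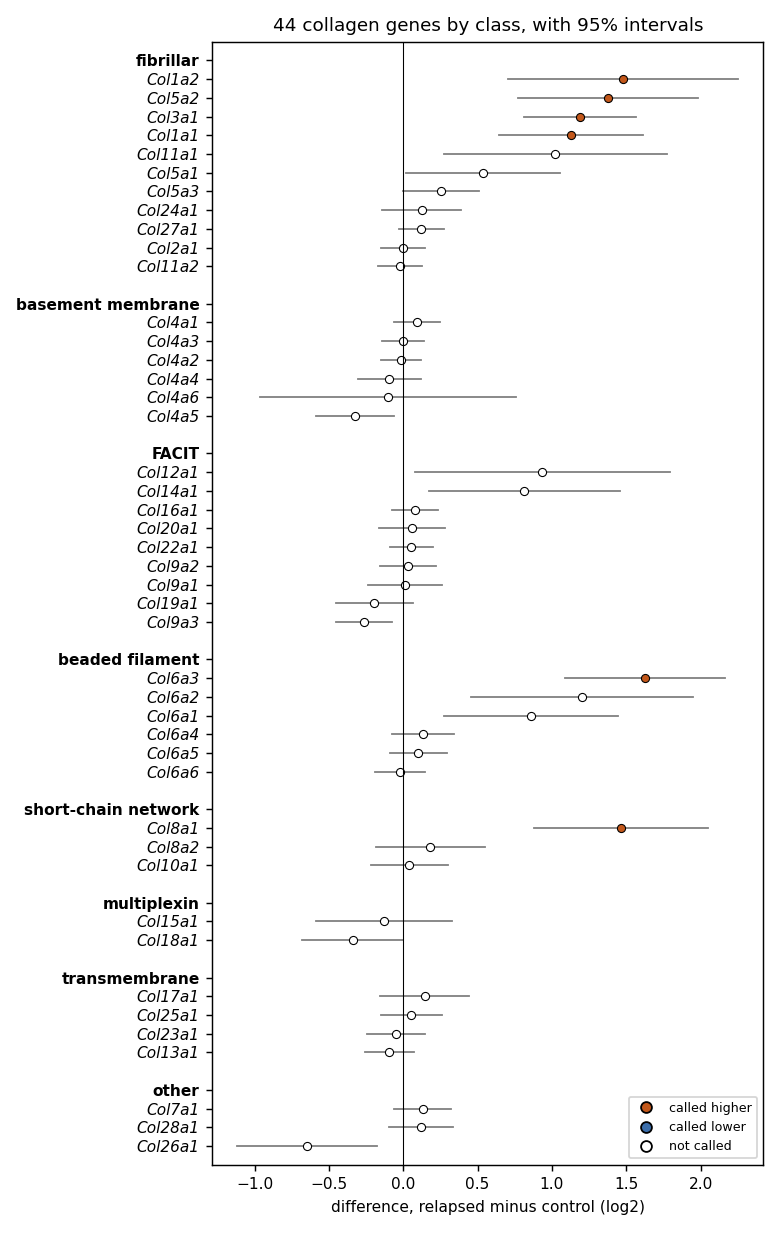
Difference between relapsed and control gliomas (log2, relapsed minus control) for each of the 44 collagen genes, grouped by class, with points for the estimate and bars for its 95% interval. The points farthest to the right belong to fibrillar, beaded filament and short-chain genes, with Col6a3 at 1.63, while the basement membrane genes Col4a1 and Col4a2 sit at 0.09 and -0.01.

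The calls were among the collagens with brighter probe sets. Of the 44 genes, 24 were among the brighter 50% of all genes by mean signal. All 6 calls and all 16 collagens whose groups did not overlap were among these 24. Over all genes, the brighter 50% held 575 of the 735 called higher. It also held 1868 of the 2584 with all relapsed values above all controls and 2713 of the 3547 with all below. The 20 collagens among the dimmer 50% differed by -0.19 to 0.18, and none was called. Dim probe sets here often gave the identical value on several arrays: 14 of the 20 dimmer collagens did so, against 7 of the 24 brighter ones. Among all genes 38.9% did so, and among the brighter 50% of all genes 15.2%. The dimmer collagens included all 4 transmembrane genes and 5 of 9 FACIT genes.

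For 3 of the genes that rose, the 250 bases before the RefSeq transcription start are shown, as examples from separate chromosomes and from 2 classes. The RefSeq promoter table (GRCm38.p6) matched 35 of 44 collagens and, of the 6 that rose, Col1a2, Col3a1, Col6a3 and Col8a1. Capitals mark matches to 3 motifs on either strand, none overlapping another. These were the box CCAAT, the TATA box core with the letters TATAAA, and the core of the site that Sp1 family factors bind, spelled GGGCGG or, on the opposite strand, CCGCCC.
Col1a2, chr6:4505368-4505617, plus strand: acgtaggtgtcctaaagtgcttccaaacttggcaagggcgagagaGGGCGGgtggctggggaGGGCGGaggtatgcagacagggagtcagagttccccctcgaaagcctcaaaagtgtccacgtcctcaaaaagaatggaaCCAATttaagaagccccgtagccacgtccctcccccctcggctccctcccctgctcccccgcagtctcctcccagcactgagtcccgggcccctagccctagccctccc
Col3a1, chr1:45311288-45311537, plus strand: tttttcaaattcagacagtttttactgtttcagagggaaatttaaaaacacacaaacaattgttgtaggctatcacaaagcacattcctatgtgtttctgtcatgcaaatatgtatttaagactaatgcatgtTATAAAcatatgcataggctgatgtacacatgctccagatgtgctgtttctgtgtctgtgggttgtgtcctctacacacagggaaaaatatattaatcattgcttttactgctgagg
Col8a1, chr16:57754738-57754987, minus strand: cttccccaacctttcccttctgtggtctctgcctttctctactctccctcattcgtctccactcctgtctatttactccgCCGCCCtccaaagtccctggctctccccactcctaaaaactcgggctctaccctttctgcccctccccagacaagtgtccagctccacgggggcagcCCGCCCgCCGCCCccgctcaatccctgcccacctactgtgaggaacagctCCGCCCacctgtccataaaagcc
The window of Col1a2, the alpha 2 chain of type I collagen, holds GGGCGG at -205 and -188 and CCAAT at -109, counted from the start site to the first base of the match. The window of Col3a1, the chain of type III collagen, holds TATAAA at -117 and neither of the other motifs. The window of Col8a1, a chain of type VIII collagen, holds 4 matches to GGGCGG, the nearest at -23. No motif was in all 3 windows. The window of Col6a3, the collagen with the largest rise, holds none of the 3 motifs and is not printed. Some genes have more than 1 start in the table, so shares were counted over genes with a match in any of their windows of that length. GGGCGG was found for 60.0% of the 35 collagen genes and for 35.4% of the 27025 genes in the table. It was found for 6 of the 9 collagen genes whose relapsed values were all above the controls and for 15 of the 26 others. CCAAT was found for 13 of 35 collagen genes and for 37.5% of all genes, and TATAAA for 5 of 35 and for 14.3%. These are matches of letters and were not tested.

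Type I collagen, the main protein of skin and scar, is made of chains from Col1a1 and Col1a2. Col1a1 was at 11.82, 11.32 and 11.31 in control 1, 2 and 4 and at 12.90, 12.46 and 12.49 in relapsed 1, 2 and 3. Col1a2 was at 11.15, 10.69 and 10.08 in the controls and at 12.48, 12.03 and 11.85 in the relapsed gliomas. For both genes the groups were apart, control 1 was the highest control and relapsed 1 the highest relapsed tumour. Col1a1 rose by 1.13 ± 0.19 (SE, n = 3 per group; limma adjusted p = 0.0300), or 2.19-fold. Col1a2 rose by 1.48 ± 0.31 (limma adjusted p = 0.0467), or 2.79-fold. The Col1a2 call was the least firm of the 6: leaving out any 1 of the 6 arrays ended it, at an adjusted p of 0.0635 to 0.122, while its difference stayed at 1.20 to 1.73. Col1a1 was still called without control 1 and in none of the other 5 such fits, with differences of 0.99 to 1.30.

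Type III collagen, which shares fibrils with type I in skin and vessels, is a trimer of the Col3a1 product alone. Col3a1 was at 10.07, 9.92 and 9.62 in the controls and at 11.27, 10.99 and 10.93 in the relapsed gliomas. The lowest relapsed tumour was 0.86 above the highest control, and the spread within each group was small beside this gap. Col3a1 rose by 1.19 ± 0.15 (SE, n = 3 per group; limma adjusted p = 0.0170), or 2.28-fold. With 1 array left out at a time the difference was 1.07 to 1.29, and the call held without control 1 or without relapsed 1 and was lost in the other 4 fits, at an adjusted p of at most 0.0571.

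Type V collagen is a minor partner inside type I fibrils that limits their width, and its chains come from Col5a1, Col5a2 and Col5a3. Col5a2 was at 8.14, 7.48 and 7.21 in the controls and at 9.05, 8.96 and 8.95 in the relapsed gliomas. The relapsed tumours were nearly equal and the controls spread over almost a log2 unit. Col5a2 rose by 1.38 ± 0.24 (SE, n = 3 per group; limma adjusted p = 0.0317), or 2.60-fold. Its call held without control 1 and was lost in the other 5 fits with an array left out, where differences were 1.18 to 1.65 over all 6. Col5a1 was at 8.44, 8.60 and 7.85 in the controls and at 8.98, 8.78 and 8.75 in the relapsed gliomas, a difference of 0.54 ± 0.21 that was not called (limma adjusted p = 0.177). Col5a3 was at 7.48, 7.27 and 7.48 and at 7.52, 7.68 and 7.79, a difference of 0.25 ± 0.10 (limma adjusted p = 0.186). Both had groups that did not overlap, though the lowest relapsed value of Col5a3 was only 0.04 above the highest control. Col5a2 lies next to Col3a1 in the RefSeq gene order of chromosome 1.

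Type XI collagen is the equivalent of type V in cartilage fibrils, and its Col11a1 chain is also made by activated fibroblasts. Col11a1 was at 7.54, 8.16 and 7.95 in the controls and at 9.39, 8.97 and 8.36 in the relapsed gliomas. The groups were apart, but the relapsed tumours spread over a log2 unit, and the difference of 1.02 ± 0.30 was not called (SE, n = 3 per group; limma adjusted p = 0.0994). Of its partners in cartilage, Col11a2 differed by -0.02, and Col2a1, the cartilage fibril gene itself, was between 7.56 and 7.71 in all 6 arrays. The fibrillar genes Col24a1 and Col27a1 differed by 0.12 each, with overlapping groups. Over the 11 fibrillar genes 4 rose and none fell, beside 3.69% and 5.47% of all genes. All relapsed values were above all controls for 7, beside 13.0% of all genes. The median difference was 0.54. That median was 0.31 without control 4 and 0.69 without control 2.

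**Figure D2:**
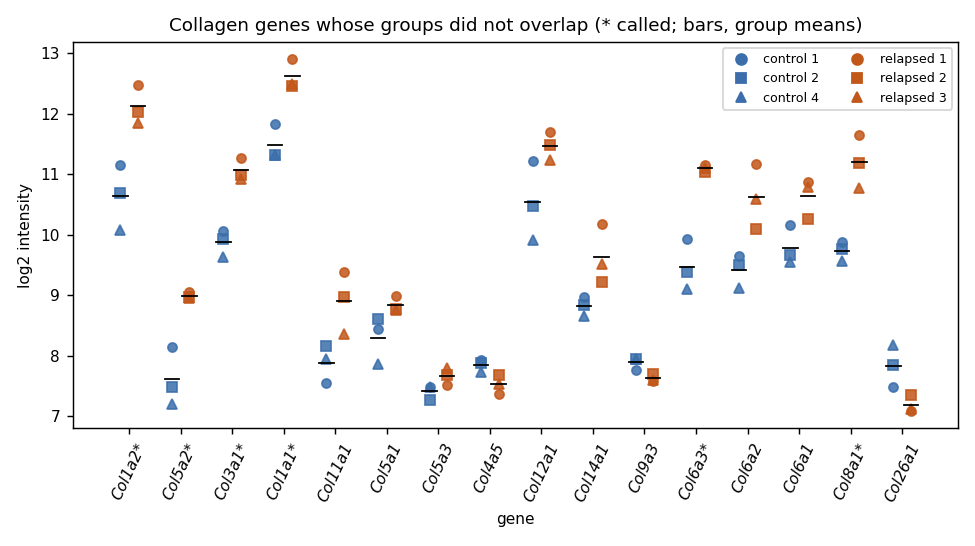
Log2 intensity in each of the 6 arrays for the 16 collagen genes whose groups did not overlap, with bars at the group means and asterisks on the 6 genes called by limma. Relapsed arrays lie above controls for 13 genes and below for Col26a1, Col4a5 and Col9a3, and relapsed 1 is the topmost point for 12 of the 13.

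The heterotrimer of type VI collagen joins the products of Col6a1, Col6a2 and Col6a3. Col6a3 was at 9.93, 9.38 and 9.09 in the controls and at 11.14, 11.03 and 11.11 in the relapsed gliomas. The gap of 1.10 between the lowest relapsed tumour and the highest control was the widest of all collagens. Col6a3 rose by 1.63 ± 0.22 (SE, n = 3 per group; limma adjusted p = 0.0183), or 3.09-fold. With 1 array left out at a time its difference was 1.44 to 1.86, and it stayed called without control 1 and missed the threshold in the other 5 fits, at an adjusted p of at most 0.0688.

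The partner chains of type VI collagen had the same direction with more spread. Col6a2 was at 9.64, 9.49 and 9.12 in the controls and at 11.17, 10.10 and 10.59 in the relapsed gliomas, a difference of 1.20 ± 0.30 (SE, n = 3 per group; limma adjusted p = 0.0681). Col6a1 was at 10.16, 9.66 and 9.54 in the controls and at 10.87, 10.27 and 10.79 in the relapsed gliomas, a difference of 0.86 ± 0.23 (limma adjusted p = 0.0841). Neither was called, although no relapsed value reached down to a control. Both passed when the dimmer 50% of genes was left out of the fit, at adjusted p of 0.0308 and 0.0429, as did Col11a1 at 0.0483. In these 2 genes relapsed 2 was the lowest relapsed tumour, whereas in Col6a3 the relapsed tumours were nearly alike. Col6a1 and Col6a2 are neighbours on chromosome 10.

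The other type VI genes, Col6a4, Col6a5 and Col6a6, encode chains that can take the place of the Col6a3 chain in some tissues, and they lie side by side on chromosome 9. They differed by 0.13, 0.10 and -0.02 with overlapping groups, and their probe sets were among the dimmer 50% of genes. The highest value of Col6a5, 6.55, was in relapsed 3. Over the 6 beaded filament genes 1 rose, beside 3.69% of all genes. All relapsed values were above all controls for 3, beside 13.0% of all genes. The median difference was 0.49.

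Type VIII collagen, a product of vascular smooth muscle and endothelium that also appears in injured vessel walls, is made from Col8a1 and Col8a2. Col8a1 was at 9.88, 9.76 and 9.57 in the controls and at 11.65, 11.18 and 10.77 in the relapsed gliomas. The controls were close together and each relapsed tumour was at least 0.89 above them. Col8a1 rose by 1.46 ± 0.24 (SE, n = 3 per group; limma adjusted p = 0.0261), or 2.76-fold. With 1 array left out at a time its difference was 1.24 to 1.68, and it stayed called without relapsed 1 or without relapsed 3 and was lost in the other 4 fits. Col8a2 was at 6.42, 6.38 and 6.40 in the controls and at 6.42 in relapsed 2 and 3, and stood higher in relapsed 1 alone, at 6.91. Col10a1, the short-chain collagen of growth plate cartilage, was at 5.73 to 6.05 in all 6 arrays.

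Among FACIT collagens, the genes with the largest differences were Col12a1 and Col14a1, which coat type I fibrils in tendon, skin and other dense tissue. Col12a1 was at 11.22, 10.47 and 9.92 in the controls and at 11.70, 11.48 and 11.24 in the relapsed gliomas. Control 1 came within 0.02 of the lowest relapsed tumour, and the difference of 0.94 ± 0.34 was not called (SE, n = 3 per group; limma adjusted p = 0.158). Col14a1 was at 8.97, 8.84 and 8.65 in the controls and at 10.17, 9.21 and 9.52 in the relapsed gliomas. Its difference of 0.81 ± 0.26 was not called (limma adjusted p = 0.117). Relapsed 1 was well above the other relapsed tumours for Col14a1, and without it the difference was 0.55.

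The type IX genes, whose product decorates cartilage fibrils, had means that were lower or nearly equal in relapsed gliomas. Col9a3 was at 7.77, 7.94 and 7.95 in the controls and at 7.57, 7.70 and 7.59 in the relapsed gliomas. All relapsed tumours were below all controls. The difference of -0.26 ± 0.075 was not called (SE, n = 3 per group; limma adjusted p = 0.0912), and it passed as lower at 0.0478 when each array was centred on its median. Col9a1 and Col9a2 differed by 0.01 and 0.03, and Col9a1 had the same value in all 3 controls. Col19a1, the neighbour of Col9a1 on chromosome 1, differed by -0.19, and Col16a1, Col20a1 and Col22a1 differed by 0.05 to 0.08. Of 9 FACIT genes limma called 0. At an unadjusted p under 0.05, 2 were higher and 1 lower, beside 11.2% and 15.4% of all genes. The median difference was 0.05.

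No basement membrane collagen was called. Col4a1 and Col4a2, which encode the ubiquitous type IV chains and lie head to head on chromosome 8, had overlapping groups. Col4a1 was at 8.47, 8.37 and 8.54 in the controls and at 8.56, 8.54 and 8.55 in the relapsed gliomas, with a difference of 0.09 and a 95% interval of -0.06 to 0.25. Col4a2 was at 8.39, 8.36 and 8.39 in the controls and at 8.31, 8.36 and 8.42 in the relapsed gliomas, with a difference of -0.01 and a 95% interval of -0.15 to 0.12. These intervals end well short of the 0.64 to 1.61 of Col1a1 or the 0.82 to 1.57 of Col3a1. They overlap those of other fibrillar genes, such as 0.02 to 1.06 for Col5a1 and -0.14 to 0.39 for Col24a1. The interval of Col4a6, -0.96 to 0.76, reaches past the lower end of that of Col1a1. A difference between the classes was not tested.

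The other chains of type IV collagen are used in fewer tissues. Col4a5, a chain of kidney and skin basement membranes, was at 7.94, 7.88 and 7.72 in the controls and at 7.36, 7.68 and 7.53 in the relapsed gliomas. All relapsed values were below the controls, and the difference of -0.32 ± 0.11 was not called (SE, n = 3 per group; limma adjusted p = 0.126). Its neighbour on the X chromosome, Col4a6, was higher in control 2, at 7.48, than in the other 5 arrays, at 6.15 to 6.72. The difference of Col4a6 was -0.10, with a 95% interval of -0.96 to 0.76, and without control 2 it was 0.28. Control 2 was also the array with the high skeletal muscle score, 1.43 against -0.55 to 0.06 in the others, whose part in this value was not tested. Col4a3 and Col4a4, paired on chromosome 1 and used in the kidney filter, differed by -0.00 and -0.09. Of 6 basement membrane genes limma called 0. At an unadjusted p under 0.05, 0 were higher and 1 lower, beside 11.2% and 15.4% of all genes. The median difference was -0.05.

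Multiplexin collagens anchor basement membranes to the matrix around them. Col18a1, whose product is cut to release endostatin, was at 9.54, 9.32 and 9.26 in the controls and at 8.83, 9.01 and 9.26 in the relapsed gliomas. Relapsed 3 matched the lowest control, and the difference of -0.34 ± 0.14 was not called (SE, n = 3 per group; limma adjusted p = 0.189). Col15a1 was at 7.59, 7.51 and 7.34 in the controls and at 7.73, 7.22 and 7.09 in the relapsed gliomas. Relapsed 1 was above and the others below all controls. Endothelial markers, the genes of a cell type that lays down these basement membranes, had a median difference of -0.31. Of 14 endothelial markers, 1 was called lower, where 5.47% of all genes were. All relapsed values were below all controls for 4, where this held for 17.8% of all genes. The mean score of these markers was 0.04 to 0.33 in the controls and -0.29 to -0.05 in the relapsed gliomas. Their part in the values of the basement membrane genes was not tested.

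No transmembrane collagen was called. Col13a1, Col17a1, Col23a1 and Col25a1, which span the cell membrane, differed by -0.09 to 0.14, and all 4 had overlapping groups. Col17a1, the hemidesmosome collagen of basal keratinocytes, was at 6.35 to 6.44 in 5 arrays and at 6.79 in relapsed 3. Relapsed 3 was also the array with the high keratinocyte score, 1.34, where the other 5 were at -0.36 to -0.20. Without relapsed 3 the difference of Col17a1 was 0.02, and the part of keratinocytes in its value was not tested. Col7a1, which forms the anchoring fibrils of skin, differed by 0.13, and Col28a1 by 0.12. Col26a1 was at 7.48, 7.85 and 8.17 in the controls and at 7.09, 7.35 and 7.12 in the relapsed gliomas. Its relapsed values were all below the controls, and the difference of -0.65 ± 0.19, the lowest of the 44 collagens, was not called (SE, n = 3 per group; limma adjusted p = 0.0971).

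The same arrays were often the highest or lowest of their group. Among the 13 collagens with every relapsed value above every control, relapsed 1 was the highest relapsed tumour in 12 and control 4 the lowest control in 11. Control 1 alone was the highest control in 10, and in Col5a3 it tied with control 4. The lowest relapsed tumour varied more: it was relapsed 3 in 7 genes, relapsed 2 in 5 and relapsed 1 in 1. The mean score of these 13 genes, each gene centred on its mean over the 6 arrays, was -0.27, -0.53 and -0.81 in control 1, 2 and 4 and 0.80, 0.40 and 0.40 in relapsed 1, 2 and 3. The score of all 11 fibrillar genes ran from -0.47 to -0.20 in the controls and from 0.23 to 0.43 in the relapsed gliomas, and that of the 6 basement membrane genes from -0.05 to 0.14 and from -0.09 to -0.00.

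The score of fibroblast markers was also higher in every relapsed glioma than in every control. The list held 14 fibroblast genes and no collagen, and their score was -0.29, -0.18 and -0.66 in control 1, 2 and 4 and 0.94, 0.16 and 0.03 in relapsed 1, 2 and 3. The highest and the lowest array were thus relapsed 1 and control 4, as for most of the collagens that were higher. Control 2 had the highest fibroblast score of the controls, whereas control 1 was the highest control for most of these collagens. Of the 14 genes, 4 were called higher (Dpt, Fap, Dcn and Lum), beside 3.69% of all genes. All relapsed values were above all controls for 5, beside 13.0% of all genes. Tcf21 was below 5.66, the median of probe sets without a listed gene, in all 6 arrays. The others did not share a direction: Pdgfra differed by 0.64, Fbln1 by -0.49 and Thy1 by -0.05, none of them called. Pdgfra, a pan-fibroblast marker, is also on the oligodendrocyte progenitor list. The score of 11 pericyte and smooth muscle genes was -0.25 to 0.21 in the controls and -0.20 to 0.50 in the relapsed gliomas, with relapsed 1 highest and control 4 lowest. These were also the highest and the lowest array of the Schwann cell score. The score of 11 adipocyte genes was 2.32 in relapsed 1 and -0.75 to -0.27 in the other 5 arrays. Without relapsed 1 the differences of the 6 called collagens kept their direction, with Col6a3 among those whose call was lost, and Col3a1 and Col8a1 were called.

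The macrophage score was higher in relapsed gliomas, and the oligodendrocyte progenitor score was lower. Of 16 macrophage genes 10 were called higher, beside 3.69% of all genes. The macrophage score was -0.82 to -0.49 in the controls and 0.47 to 0.93 in the relapsed gliomas. Of 10 oligodendrocyte progenitor genes 6 were called lower, beside 5.47% of all genes. The progenitor score was 0.53 to 1.05 in the controls and -0.77 to -0.72 in the relapsed gliomas. The rest of this list did not follow: Pdgfra, Cspg4 and Gpr17 differed by 0.64, 0.09 and 0.10 and Sox10 by -0.14, all with overlapping groups. Of 11 cartilage and bone genes 2 were called lower, beside 5.47% of all genes. Of 8 Schwann cell genes limma called 0, with 1 higher at an unadjusted p under 0.05, beside 11.2% of all genes. The scores of these lists, in the same order, were -0.16 to 0.12 and -0.14 to 0.19 over the 6 arrays. The part of any of these cell types in the collagen differences was not tested.

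**Figure D3:**
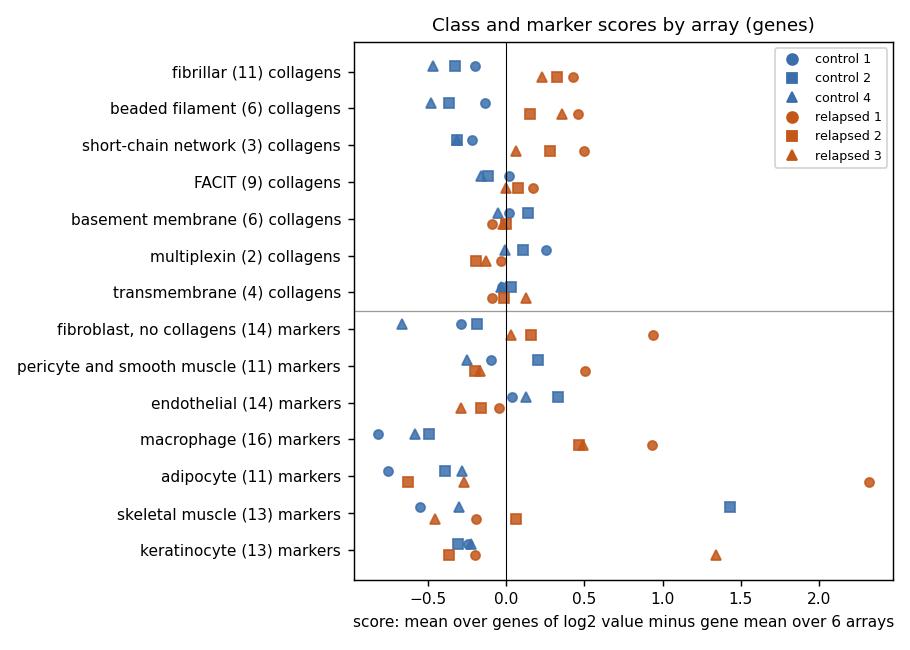
Score of the collagen classes and of the fibroblast, vascular, macrophage, adipocyte, muscle and keratinocyte marker lists in the 6 arrays, where each gene is first centred on its average across arrays and the centred log2 values are then averaged, with the number of genes beside each name. Fibrillar, beaded filament, short-chain network, fibroblast and macrophage scores of the relapsed arrays lie above the controls, and multiplexin and endothelial scores lie below. The adipocyte, keratinocyte and skeletal muscle lists each have 1 array far above the others.

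The genes that modify and fold collagen chains in the endoplasmic reticulum had no common direction. Of 17 measured, 1 rose and 1 fell, beside 3.69% and 5.47% of all genes, and the median difference was 0.08. Serpinh1 encodes HSP47, the chaperone that binds the collagen triple helix. It was at 8.39, 8.88 and 8.24 in the controls and at 9.78, 10.27 and 9.66 in the relapsed gliomas. The groups were apart, and Serpinh1 rose by 1.40 ± 0.23 (SE, n = 3 per group; limma adjusted p = 0.0277). Plod3, a lysyl hydroxylase that also adds sugars to collagen, was at 10.88, 10.91 and 10.76 in the controls and at 10.33, 10.32 and 10.17 in the relapsed gliomas. It fell by 0.58 ± 0.075 (limma adjusted p = 0.0176), with every relapsed value below every control. The prolyl hydroxylase subunits P4ha1, P4ha2, P4ha3 and P4hb, which make the hydroxyproline that keeps the helix stable, differed by 0.07, 0.09, 0.23 and -0.07, all with overlapping groups. Serpinh1 stayed called only without control 2 and Plod3 only without relapsed 1 among the 6 fits that left out an array, with differences of 1.22 to 1.59 and -0.62 to -0.53.

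After secretion, procollagen ends are cut off and the fibrils are crosslinked. Of 11 genes for these steps 1 rose and none fell, beside 3.69% and 5.47% of all genes. At an unadjusted p under 0.05 in limma, 3 were higher and 2 lower, beside 11.2% and 15.4% of all genes. The median difference was 0.23. Pcolce, which enhances the cutting of procollagen ends by BMP1, was at 9.82, 10.35 and 9.82 in the controls and at 12.14, 11.34 and 11.60 in the relapsed gliomas. Every relapsed tumour was above every control, and Pcolce rose by 1.69 ± 0.25 (SE, n = 3 per group; limma adjusted p = 0.0221). The call was lost without control 1, control 4, relapsed 2 or relapsed 3, and the difference over the 6 fits was 1.47 to 1.87. Bmp1, the protease itself, was at 12.30, 12.25 and 12.02 in the controls and at 11.43, 11.69 and 11.79 in the relapsed gliomas. Its difference of -0.55 ± 0.12 had the other sign and was not called (limma adjusted p = 0.0549). Lox encodes the lysyl oxidase that starts crosslinking. It was at 10.05, 9.52 and 9.03 in the controls and at 11.52, 11.35 and 10.57 in the relapsed gliomas. The groups did not overlap, but its difference of 1.62 ± 0.36 missed the threshold (limma adjusted p = 0.0514).

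Among 10 collagen receptors 2 fell and none rose, beside 5.47% and 3.69% of all genes. At an unadjusted p under 0.05 in limma, 2 were higher and 2 lower, beside 11.2% and 15.4% of all genes. Adgrg1, an adhesion receptor for type III collagen that is also abundant in oligodendrocyte progenitors, was at 11.86, 12.04 and 12.02 in the controls and at 9.84, 9.88 and 9.37 in the relapsed gliomas. The groups were about 2 log2 units apart, and Adgrg1 fell by 2.28 ± 0.15 (SE, n = 3 per group; limma adjusted p = 0.00660), a call kept in all 6 fits that left out an array. Ddr1, a receptor tyrosine kinase activated by collagen, was at 10.53, 11.01 and 10.39 in the controls and at 9.42, 9.52 and 9.66 in the relapsed gliomas. It fell by 1.11 ± 0.18 (limma adjusted p = 0.0256), with differences of -1.24 to -0.93 when 1 array was left out and a call only without control 2. The oligodendrocyte progenitor score was lower in the same 3 arrays, and the part of such cells in these falls was not tested. Ddr2, a relative of Ddr1 more typical of fibroblasts, differed by 0.09. The integrin chains Itga1 and Itgb1, which pair as a collagen receptor, differed by -0.10 and 0.26, with overlapping groups. Lair1, an inhibitory collagen receptor of immune cells, was at 7.69, 8.00 and 8.57 in the controls and at 9.85, 9.49 and 8.88 in the relapsed gliomas, a difference of 1.32 ± 0.33 that was not called (limma adjusted p = 0.0689).

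Genes for collagen breakdown and its inhibitors were higher in mean in all 14 cases. Of these 4 were called higher and none lower, beside 3.69% and 5.47% of all genes. All relapsed values were above all controls for 9, beside 13.0% of all genes. The median difference was 0.64. Ctsk, the collagen-cutting cathepsin of osteoclasts that macrophages and fibroblasts also make, was at 7.64, 7.43 and 6.96 in the controls and at 9.64, 9.22 and 8.93 in the relapsed gliomas. Ctsk rose by 1.92 ± 0.25 (SE, n = 3 per group; limma adjusted p = 0.0177), with the groups over a log2 unit apart. Fap, a protease of activated fibroblasts, rose by 2.00 ± 0.40 (limma adjusted p = 0.0423). Ctsb, a lysosomal protease, rose by 0.52 ± 0.064 (limma adjusted p = 0.0163), and Timp2, an inhibitor of metalloproteinases, by 0.65 ± 0.14 (limma adjusted p = 0.0467). Leaving out any 1 array ended the calls of Fap and Timp2, and Ctsk stayed called only without relapsed 1 and Ctsb in 3 of 6 fits. Their differences kept the direction in all of these fits. The collagenases and gelatinases Mmp2, Mmp13 and Mmp14 differed by 0.82, 1.05 and 0.40, and none was called. Mmp8 was below 5.66 in all 6 arrays.

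Genes for proteins that bind collagen fibrils were higher in mean in all 16 cases measured. Of these 7 rose and none fell, beside 3.69% and 5.47% of all genes. All relapsed values were above all controls for 12, beside 13.0% of all genes. The median difference was 1.08. Among the 12, Kera was below 5.66 in all arrays but relapsed 1, at 6.88, and its groups were only 0.05 apart. Prelp and Abi3bp had groups 0.10 apart each, with relapsed 1 highest. Ogn, whose product osteoglycin is a small leucine-rich proteoglycan, was at 6.64, 6.98 and 7.44 in the controls and at 11.75, 10.82 and 11.11 in the relapsed gliomas, and rose by 4.21 ± 0.31 (SE, n = 3 per group; limma adjusted p = 0.00712). Aspn and Omd, of the same family, rose by 3.23 ± 0.34 and 2.78 ± 0.31, where Omd was below 5.66 in all controls, and Lum, a regulator of fibril width, rose by 2.76 ± 0.49 (limma adjusted p of 0.0130, 0.0139 and 0.0325). Leaving out 1 array at a time kept Ogn called in all 6 fits, Aspn and Omd in 4 and Lum in 1 (without relapsed 1). Dcn, which rose by 1.85, Fap and Lum are also members of the fibroblast list.

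**Figure D4:**
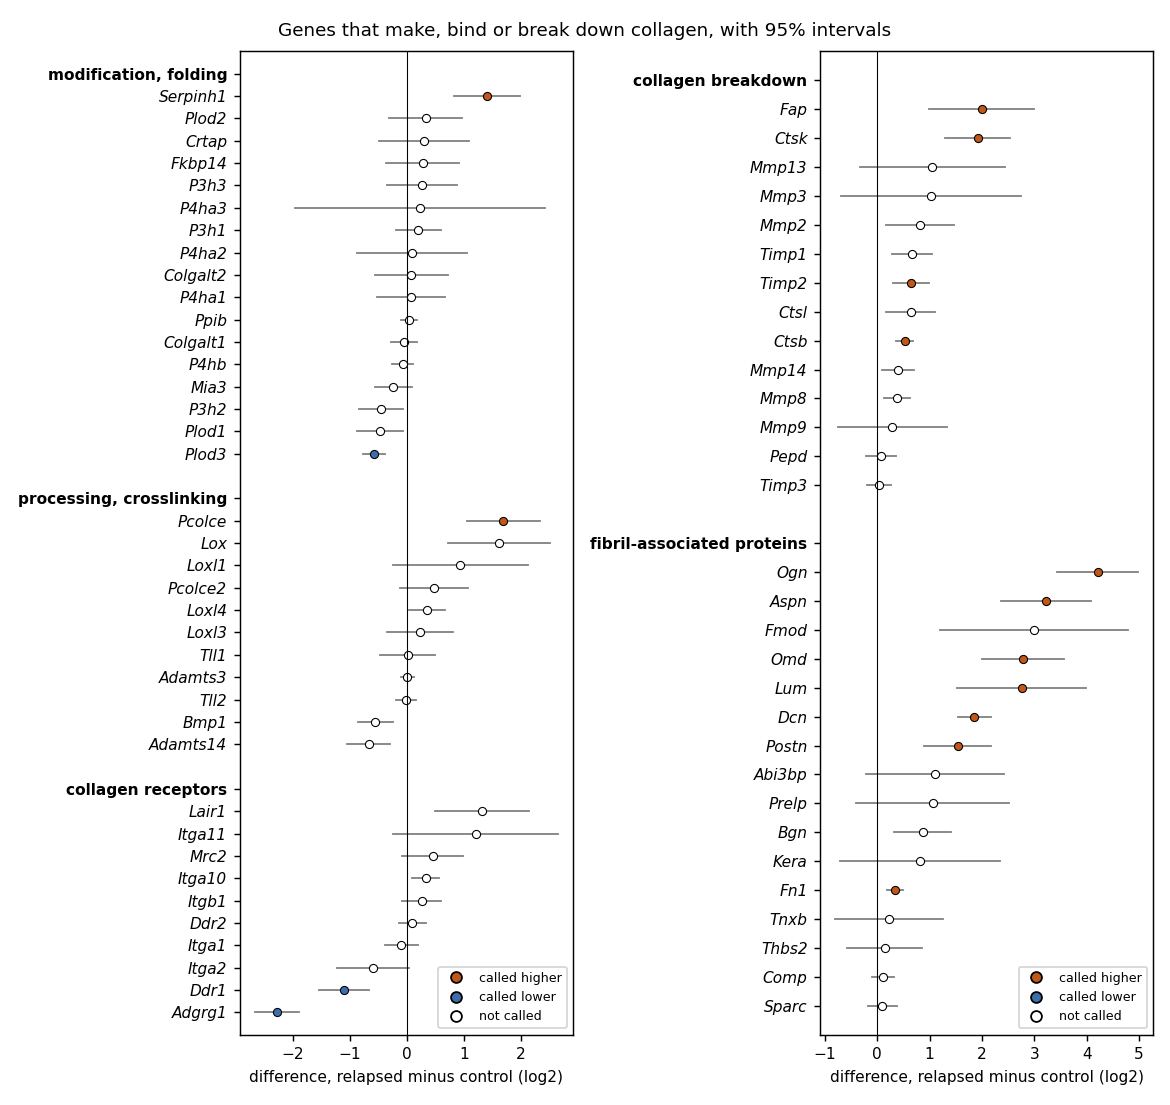
Difference between relapsed and control gliomas (log2, relapsed minus control) for the measured genes of collagen modification, processing, receptors, breakdown and fibril binding, with points for the estimate and bars for its 95% interval. Points for fibril-binding and breakdown genes all lie right of 0, with Ogn at 4.21, while receptor genes lie on both sides, with Adgrg1 at -2.28.

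The number of collagens called fell with any array left out. Leaving out control 1 left 4 collagens called higher, leaving out relapsed 1 left 2, and leaving out relapsed 3 left 1. Leaving out control 2, control 4 or relapsed 2 left 0 called by limma, with 10, 10 and 9 collagens higher at an unadjusted p under 0.05. Calls fell over all genes too, from 735 called higher of 19938. The count was 140, 301 and 120 without control 1, 2 and 4. It was 380, 177 and 126 without relapsed 1, 2 and 3. The differences of the 6 called collagens were positive in every one of these fits. Precision is limited by there being 3 arrays per group. The labels do not say whether the tumours grew in separate mice, so the p-values measure only the spread between these samples.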

How the data were processed

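The authors deposited 1 log2 intensity per probe set and array, per the labels from total RNA of which 5 ug was labelled. The submitters' processing notes name affy, with no version stated. How background was corrected and arrays were normalized and summarized is not given in the sources used here. Values were used as deposited. Of 35556 probe sets, 21789 had 1 gene symbol in the platform annotation, 1621 had several and 12146 were not listed. For 999 genes with several probe sets the brightest by mean was used. Differences were fitted over 19938 genes with limma 3.58.1 (lmFit and eBayes, R 4.3.3; 4 residual and 1.53 prior degrees of freedom), two-sided, with Benjamini-Hochberg adjustment. The procedure was tested on simulated data.

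The collagens, their classes and the pathway and marker lists were chosen with earlier results of these data known. Named list members were up to 4 called genes with the largest change, or the 2 with the smallest p; other list members named were chosen after their values were seen. Fkbp10, Sc65, Adamts2, Loxl2 and Gp6 were not analysed here. Alternatives were other normalizations, filters, probe set rules, weights, a replicate block and leaving out each array. Promoter sequences are from RefSeq (GRCm38.p6).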

Additional observations from a re-analysis of the deposited data

How the results depend on the processing

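The 3 arrays per group limit every call. Collagens called higher numbered 6, and 0 to 4 when 1 array was left out. Over all genes the calls higher numbered 735, and 120 to 380 when 1 array was left out. Collagens called higher numbered 9 without the dimmer 50% of genes and 5 with all probe sets tested or with array weights, which lost Col1a2. Over all genes these settings called, in turn, 849 of 9969, 516 and 1041 higher. Median centring called 1 collagen lower, Col9a3, and over all genes it called 696 higher and 1687 lower against 735 and 1091, as the median of all genes moved from -0.02 to -0.09. The replicate numbers 1 and 2 occur in both groups. Same-numbered arrays had residual correlations of -0.34 and -0.25, and arrays of unlike number -0.19 to 0.35. These residuals are centred within groups of 3 arrays, so they cannot show whether the numbers mark pairs of tumours. A replicate block leaves control 4 and relapsed 3 without a same-numbered partner, so its differences rest on the arrays numbered 1 and 2 alone. With so few arrays, a lack of calls in that fit says little about any gene. With the replicate block 0 collagens and 0 of all genes were called by limma. At an unadjusted p under 0.05, 7 collagens were higher and 1 lower, and the 5 pathway lists had 0 calls in either direction. The median difference with the replicate block was 0.36 for fibrillar collagens. Leaving out 1 array gave 0 to 1 calls higher and 0 to 1 lower for modification, 0 to 1 higher for processing, 1 to 2 lower for receptors, 0 to 2 higher for breakdown and 2 to 5 higher for fibril-binding genes. Processing genes numbered 2 higher without the dimmer 50%, with quantile normalization and with median centring, and lower they numbered 2, 1 and 2 there and 1 with array weights. Receptors called higher numbered 1 without the dimmer 50%, and breakdown genes 2 with all probe sets tested. Without the dimmer 50% the median was 0.40 for the 24 collagens left and 1.02 for 9 fibrillar genes. It was 0.45 for 4 FACIT genes, 1.20 for 3 beaded filament genes and -0.26 for 2 other collagens. The only short-chain gene left, Col8a1, differed by 1.46. With median centring the median was 0.011 for all and 0.044 for other collagens. With 1 array left out the median was 0.31 to 0.69 for fibrillar and 0.034 to 0.12 for other collagens.

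Collagens close to no difference changed sign. With quantile normalization the difference was -0.048 for Col2a1, -0.016 for Col20a1, -0.012 for Col22a1, -0.033 for Col9a2, -0.048 for Col9a1, -0.021 for Col10a1 and -0.010 for Col25a1. With median centring it was -0.074, -0.016, -0.020, -0.044, -0.061, -0.032 and -0.019 for these genes in turn. With array weights it was -0.018 for Col2a1, 0.0049 for Col4a3, 0.12 for Col4a6 and -0.010 for Col20a1, and with the replicate block 0.024 for Col4a3 and -0.012 for Col25a1. With 1 array left out the difference was -0.032 to 0.039 for Col2a1, -0.050 to 0.017 for Col11a2, -0.035 to 0.025 for Col4a3, -0.043 to 0.013 for Col4a2, -0.39 to 0.28 for Col4a6, -0.017 to 0.12 for Col20a1, -0.039 to 0.065 for Col9a2, -0.080 to 0.099 for Col9a1, -0.066 to 0.023 for Col6a6, -0.050 to 0.10 for Col10a1 and -0.097 to 0.023 for Col23a1. Median centring by its nature lowered the difference of every gene by the same amount, as the array medians were higher in the relapsed gliomas. The cause of the other moves was not tested.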
